A study of Mus musculus with 8 samples.

Results

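The genes described here are 9 fibrillar and cartilage collagens, Col1a1, Col1a2, Col2a1, Col3a1, Col9a1, Col9a2, Col9a3, Col11a1 and Col11a2, listed by name out of 32502 genes in the tables of 8 Drop-seq libraries. The list was selected on measured values, since several of these genes lead the tumour cells of these libraries by UMI count, so their level in tumour cells against other cells is given as a description and was not tested. Drop-seq captures single cells with barcoded beads and counts the 3′ ends of their messenger RNAs as unique molecular identifiers (UMIs). All 9 genes were found in at least 30 cells and were among the 18473 genes that remained after this filter.

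Collagens are triple helices of 3 protein chains, each encoded by its own gene. Type I collagen, built from the products of Col1a1 and Col1a2, and type III collagen, built from Col3a1, are the fibrils of skin, vessel walls and scars, and fibroblasts are their usual source. The fibrils of cartilage consist of type II collagen, built from Col2a1, with type XI collagen (Col11a1 and Col11a2) in their core and type IX collagen (Col9a1, Col9a2 and Col9a3) on their surface, and chondrocytes are the usual source. Healthy brain tissue holds little fibrillar collagen outside its vessels and meninges.

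The study implanted GL261 cells, a mouse glioma line of C57BL/6 origin, into the brains of mice (C57BL/6 in the labels, C57BL/6N in the study's methods) that were either wild type (WT, Irg1/Acod1 +/+) or lacked Acod1 (KO, Irg1/Acod1 -/-), the gene of the enzyme that makes itaconate in activated macrophages. For each genotype there was 1 library of naïve brain without implanted cells and 1 library each of an early, an intermediate and a late tumour, with stages set by tumour volume. Each tumour-bearing library came from 1 mouse, the naïve labels name 2 mice each, and the age of the mice is not given in the sources used here. The early WT host was female and the early KO host male, the intermediate WT host male and the intermediate KO host female, and both late hosts were male, so sex and genotype cannot be told apart at the first 2 stages. The same line was implanted in every host. With 1 library per genotype and stage, KO and WT tumour cells also differed in mouse and library, which cannot be told apart from host genotype.

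After the cell filters 5698 cells remained, between 454 and 1000 per library, with a median of 2597.5 to 5637.5 UMIs per cell. Acod1, the targeted gene, had 0 UMIs in both naïve libraries, 161, 21 and 10 UMIs in the libraries labelled WT early, intermediate and late, and 33, 26 and 41 UMIs in those labelled KO early, intermediate and late. The KO allele holds a cassette between exons, and a count of 3′ ends does not show whether the gene is disrupted, so the libraries are named by their labels. Up to 2 cell barcodes were shared between a pair of libraries, 27 in all over the 28 pairs.

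Cells were clustered without collagen genes and named from marker genes. Tumour cells are cluster 10 of 14, 3404 cells of which 3399 came from tumour-bearing libraries and 5 from naïve ones. The leading genes of this cluster were Lect1, H19, Rhox5, Mgp, Car6, Pcolce, Gpnmb, Syt4, Prph and Serpina3n, and of the 8 markers listed for tumour cells 4 (Cd44, Myc, Dppa2 and Gm14139) were more than 2-fold higher in it, with none of the 8 among its 10 leading genes. Mgp, among the leading genes, is in the fibroblast marker list. The class called tumour cells is exactly this 1 cluster. Mural and fibroblast cells, the cells that wrap vessels and the cells of the brain's connective tissue, were 60 cells with more UMIs of mural or fibroblast markers than of endothelial markers within the vascular cluster. Of the 329 cells in that cluster, 7 lay within 3 UMIs of the dividing line.

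Levels are given as CPM, the UMIs of a gene scaled by the total UMIs of the same class in a library. Because each messenger RNA is counted once at its 3′ end, levels of different genes are compared without a length correction. Positions are those of GENCODE M21 on GRCm38. Col1a1 lies at chr11:94936224-94953042, Col1a2 at chr6:4504814-4541544, Col3a1 at chr1:45311538-45349706, Col11a1 at chr3:114030540-114220718, Col11a2 at chr17:34039437-34066685, Col9a1 at chr1:24177610-24252684, Col9a2 at chr4:121039385-121055322 and Col9a3 at chr2:180597790-180622189, all on the plus strand. Col2a1 lies at chr15:97975602-98004695 on the minus strand. Col1a2 and Col3a1 overlap the annotated genes Gm43921 and Gm47302 on their own strand, so reads shared by the overlapping genes could not be assigned with certainty.

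The RefSeq table for GRCm38.p6 held 7 promoter windows, 250 bases before to 50 after a start, for 6 of the 9 genes, with none for Col1a1, Col2a1 and Col9a3. The windows of the 3 genes with the most UMIs in tumour cells and of Col1a2, the chain nearly lacking there, are printed to show how unlike they are. All 4 are on the plus strand and run 5′ to 3′, and capitals mark the TATA box (TATAAA), the CCAAT box (CCAAT), the GC box (GGGCGG) and either core of SOX factor sites (ACAAAG and the variant ACAATG), on either strand. They lie at chr1:24177360-24177659 (Col9a1, its upstream start), chr3:114030290-114030589 (Col11a1), chr1:45311288-45311587 (Col3a1) and chr6:4505368-4505667 (Col1a2).
Col9a1: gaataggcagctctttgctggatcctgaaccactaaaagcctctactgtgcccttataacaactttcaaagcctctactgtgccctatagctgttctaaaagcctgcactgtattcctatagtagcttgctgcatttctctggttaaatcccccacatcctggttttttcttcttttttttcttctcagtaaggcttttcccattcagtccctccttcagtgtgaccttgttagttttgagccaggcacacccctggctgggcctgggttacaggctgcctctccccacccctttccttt
Col11a1: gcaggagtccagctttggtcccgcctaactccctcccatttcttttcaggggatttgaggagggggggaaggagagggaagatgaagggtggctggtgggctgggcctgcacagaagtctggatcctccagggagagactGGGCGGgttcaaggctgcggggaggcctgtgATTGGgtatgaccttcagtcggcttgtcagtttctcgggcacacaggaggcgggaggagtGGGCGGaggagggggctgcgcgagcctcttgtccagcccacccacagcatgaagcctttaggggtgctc
Col3a1: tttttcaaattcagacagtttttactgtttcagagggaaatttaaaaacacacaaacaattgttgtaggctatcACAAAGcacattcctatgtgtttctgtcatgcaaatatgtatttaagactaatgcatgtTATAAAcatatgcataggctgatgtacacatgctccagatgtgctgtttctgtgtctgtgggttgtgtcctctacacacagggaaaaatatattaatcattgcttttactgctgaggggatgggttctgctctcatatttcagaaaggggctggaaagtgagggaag
Col1a2: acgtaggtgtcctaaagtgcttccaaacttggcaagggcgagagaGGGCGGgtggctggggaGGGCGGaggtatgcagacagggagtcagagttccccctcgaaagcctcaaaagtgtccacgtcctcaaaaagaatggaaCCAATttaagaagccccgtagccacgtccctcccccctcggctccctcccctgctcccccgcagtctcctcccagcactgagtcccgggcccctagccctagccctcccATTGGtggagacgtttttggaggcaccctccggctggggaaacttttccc

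The upstream window of Col9a1, the most abundant of these collagens in tumour cells, held none of the 5 motifs. Col3a1 held the TATA box and the first SOX core 1 time each, and was the poorest in G and C, with 37.7% against a median of 52.7% over all 32851 windows. Col11a1 held the GC box 2 times and the CCAAT box 1 time, and Col1a2 held each of these 2 times. Of all windows in the table, 13.6% held the TATA box, 37.4% the CCAAT box, 35.7% the GC box, 18.7% the first SOX core and 12.6% its variant. No motif was shared by all 4 windows, and among the 7 windows of these genes a SOX core occurred only in that of Col3a1. A match is a description of the letters and not a bound site.

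Tumour cells carried messages of all 3 cartilage collagen types and of type III collagen, with type IX ahead in every library but WT early. Over the 6 tumour-bearing libraries the 9 genes together made up between 0.375% and 0.806% of all tumour cell UMIs. Type IX chains were 42.3% to 49.7% of these collagen UMIs, type II and XI chains 24.8% to 48.2%, type III 8.79% to 27.2%, and type I 0.714% to 3.14%. The WT early tumour stood at one end of each of these ranges, with the highest share of types II and XI and the lowest shares of types IX, III and I. There types II and XI together, at 48.2%, exceeded type IX, at 42.3%.

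Among the cartilage collagens, Col9a1, the first chain of type IX, was at 762, 2581 and 1634 CPM in tumour cells of the WT early, intermediate and late libraries and at 881, 1600 and 1004 CPM in those of the KO libraries. Its partner chain Col9a2 was at 537, 666 and 563 CPM in WT and at 602, 1123 and 443 CPM in KO. Col9a3, the remaining chain, was at 287, 563 and 527 CPM in WT and at 293, 609 and 294 CPM in KO. In both genotypes all 3 chains were higher in the intermediate than in the early tumour. The 3 chains are needed in equal number in type IX collagen, but their messages were unequal, with means of 1410 ± 681, 656 ± 241 and 429 ± 153 CPM (SD, n = 6).

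Col11a1, which sets the core of the cartilage fibril, was at 1418, 1476 and 1314 CPM in WT and at 672, 1249 and 762 CPM in KO tumour cells. Its partner Col11a2 was lower, at 228, 208 and 190 CPM in WT and at 144, 464 and 121 CPM in KO. Col2a1, the bulk chain of the cartilage fibril, was at 161, 313 and 143 CPM in WT and at 162, 415 and 141 CPM in KO. In every library Col11a1 exceeded Col2a1, with means of 1149 ± 345 and 223 ± 114 CPM (SD, n = 6), and Col11a2 and Col2a1 exceeded each other in 3 libraries each.

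Of the chains of scar and vessel fibrils, Col3a1 was at 330, 2057 and 962 CPM in WT and at 982, 1054 and 1048 CPM in KO tumour cells. Col1a1 was at 26.1, 190 and 147 CPM in WT and at 49.7, 211 and 41.5 CPM in KO. Col1a2 was at 0.678, 3.77 and 3.74 CPM in WT (2, 30 and 22 UMIs) and at 3.02, 0.209 and 0.251 CPM in KO (11, 1 and 1 UMIs). The 3 genes thus differed by orders of magnitude within the same cells, with means of 1072 ± 555, 111 ± 81.8 and 1.94 ± 1.74 CPM (SD, n = 6).

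Ranked by mean among all 18473 genes in tumour cells, Col9a1 was at place 51, Col11a1 at 70, Col3a1 at 82, Col9a2 at 187, Col9a3 at 340, Col11a2 at 851, Col2a1 at 863, Col1a1 at 1997 and Col1a2 at 14086. Neighbours in this order did not all keep it from library to library. Col9a1 exceeded Col11a1 in 5 of 6 libraries, Col11a1 exceeded Col3a1 in 3, Col3a1 exceeded Col9a2 in 4 and Col2a1 exceeded Col1a1 in 5, whereas Col9a2 over Col9a3, Col9a3 over Col11a2 and Col1a1 over Col1a2 held in 6 of 6. The order of the first 4 genes, and that of Col11a2 and Col2a1, is therefore not fixed beyond the spread between libraries. Between the lowest and the highest library the levels of the 8 abundant genes differed from 2.12-fold (Col9a3) to 8.09-fold (Col1a1).

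**Figure D1:**
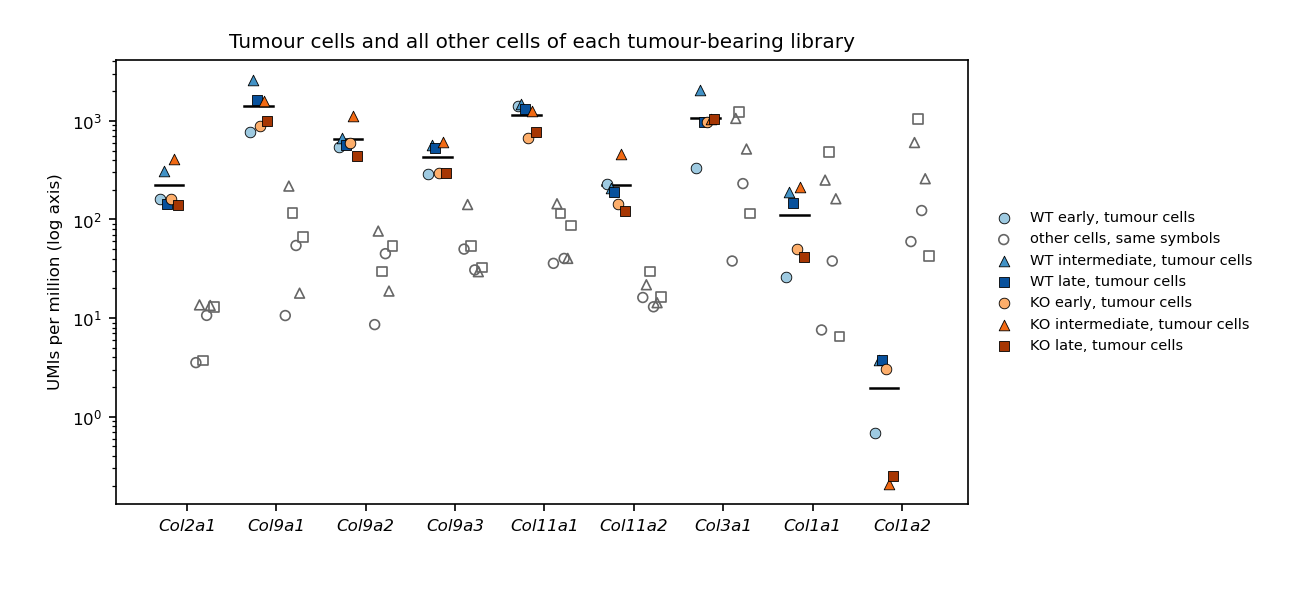
CPM (log axis) of each collagen gene in the 6 tumour-bearing libraries, with filled symbols for tumour cells, open symbols of the same shape for all other cells of the same library, and a bar at the mean over tumour cells. The 6 filled symbols of Col2a1, the type IX genes, Col11a1 and Col11a2 lie above all their open symbols, those of Col1a2 lie below all of them, and those of Col1a1 and Col3a1 overlap with them.

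Against all other cells of the same library, 6 of the 9 collagens were more than 2-fold higher in tumour cells in 6 of 6 libraries when compared as log2(CPM + 10), which understates the change of low genes. These were the genes of the cartilage types II, XI and IX, with median differences of 3.57 (Col2a1), 3.58 (Col11a1), 2.76 (Col11a2), 3.76 (Col9a1), 3.66 (Col9a2) and 2.87 (Col9a3). Of all 18473 genes, 2.96% were that much higher in every library. The collagens were listed for such differences, so nothing is read from their share. Col1a2 was more than 2-fold lower in every library, with a median of -4.04, as were 4.82% of all genes. Col3a1 and Col1a1 had medians of 1.53 and 0.34 but ranged from -0.34 to 3.08 and from -1.66 to 1.64. Tumour cells were below the other cells only in WT late for Col3a1, and in WT intermediate and WT late for Col1a1.

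Pooled over libraries, most UMIs of types I and III in the other cells were in the small class of mural and fibroblast cells. KO late was an exception for Col3a1, with 26 of 106 UMIs in these cells, 27 in microglia-like and 25 in macrophage-like cells. With these left out of the other cells, an alternative added after seeing the data, the median difference was 2.81 for Col1a1, 3.80 for Col3a1 and -0.57 for Col1a2. Set against these alone, tumour cells were lower in all 3 genes, with median differences of -3.54, -2.35 and -8.18.

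**Figure D2:**
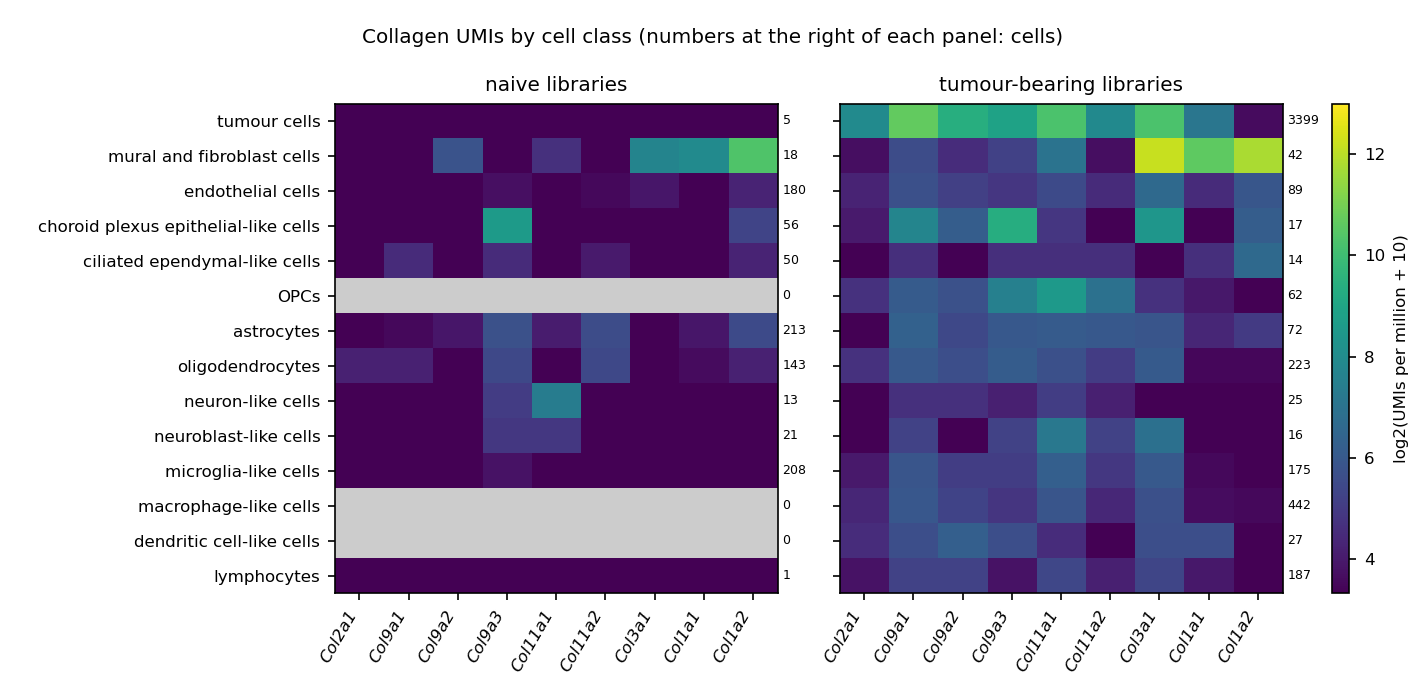
Log2(CPM + 10) of each collagen gene in each cell class, pooled over the 2 naïve libraries (left) and the 6 tumour-bearing libraries (right), with the number of cells at the right of each panel and grey where a class had no cells. Tumour cells are bright for 8 of the 9 genes, mural and fibroblast cells for Col3a1, Col1a1 and Col1a2, OPCs for Col11a1 and choroid plexus epithelial-like cells for Col9a3.

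The 2 chains of type I collagen divided tumour cells from mural and fibroblast cells without overlap. In tumour cells Col1a1 gave 3814 UMIs and Col1a2 gave 67, so that Col1a1 made up 98.3% of type I UMIs (exact 95% binomial interval 97.8% to 98.7%), between 94.3% and 99.9% by library. In mural and fibroblast cells of tumour-bearing libraries it was the minor chain, with 566 UMIs against 1293, or 30.4% (28.4% to 32.6%), and in those of naïve libraries it gave 16 against 86 UMIs, or 15.7% (9.24% to 24.2%). By library this share ran from 12.5% to 37.4% in mural and fibroblast cells, so the highest value of this class was far below the lowest of tumour cells. Intervals and limits given for sums of UMIs cover counting error only.

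**Figure D3:**
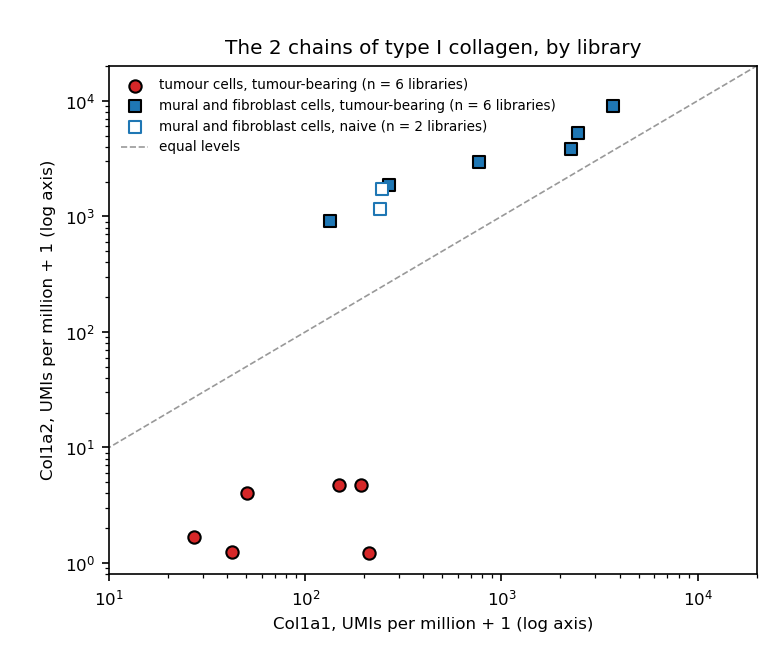
Col1a1 (x axis) against Col1a2 (y axis), both in CPM + 1 on log axes, 1 point per library for tumour cells and for mural and fibroblast cells of naïve and tumour-bearing brains, with a dashed line of equal levels. All 6 tumour cell points lie below the line and all 8 mural and fibroblast points above it.

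Mural and fibroblast cells held the highest levels of types I and III of any class, and these levels were higher in most tumour-bearing than in naïve libraries. Col3a1 was at 369 CPM in the WT naïve and 139 CPM in the KO naïve library, at 583, 11876 and 5990 CPM in the WT early, intermediate and late libraries and at 4467, 7358 and 1388 CPM in the KO ones. Col1a1 was at 246 and 239 CPM in the naïve libraries, at 133, 3696 and 2449 CPM in the WT tumours and at 771, 2269 and 267 CPM in the KO tumours. For Col3a1 every tumour-bearing value lay above both naïve values, and for Col1a1 the WT early value lay below them.

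Col1a2 was already abundant in naïve brain, at 1722 CPM (WT) and 1155 CPM (KO), and was at 910, 9011 and 5255 CPM in the WT tumours and at 2924, 3790 and 1868 CPM in the KO tumours. Its naïve and tumour-bearing values overlapped. Over the 6 libraries with at least 5 such cells, which leaves out WT intermediate and KO late, the fitted log2 change from naïve to tumour-bearing was 4.33 (SE 1.18) for Col3a1, 2.65 (SE 1.15) for Col1a1 and 1.29 (SE 0.76) for Col1a2. None was called by the quasi-likelihood test of edgeR, with Benjamini-Hochberg adjusted p of 0.25, 0.44 and 0.55. Leaving out 1 library moved these changes to between 3.37 (without KO naïve) and 5.49 (without WT naïve) for Col3a1, 1.55 (without WT late) and 2.93 (without WT early) for Col1a1, and 0.56 (without WT late) and 1.63 (without WT naïve) for Col1a2. Without WT early, Col3a1 was called by edgeR (log2 change 4.79, SE 0.73, adjusted p = 0.034). This test called 0 of 1845 genes (percent called 0), with 206 at an unadjusted p under 0.05, while DESeq2 called 33 genes, Col3a1 among them with a log2 change of 4.28 and an adjusted p of 0.0041. On simulated sums of this size the edgeR test called 1% of genes changed 4-fold. Changes above 4-fold were not simulated, so how often it would call one as large as that of Col3a1 is not known.

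The makeup of this class differed between libraries, and its part in these differences was not tested. Levels are given here by side. Fibroblast-side cells pooled over naïve libraries (9 cells) held 285 CPM of Col3a1, 414 of Col1a1 and 2069 of Col1a2, and those of tumour-bearing libraries (24 cells) held 7174, 2398 and 5401 CPM. Mural-side cells held far less, with 71.9, 0 and 216 CPM in naïve (9 cells) and 287, 44.1 and 235 CPM in tumour-bearing libraries (18 cells). Among fibroblast-side cells Col3a1 was higher in the pooled tumour-bearing libraries, though 12 of the 24 cells came from the KO intermediate library. The WT early library, which had the lowest values of the tumour-bearing ones, held 7 mural-side and 2 fibroblast-side cells. These fibroblast-side cells held 1462 CPM of Col3a1, 337 of Col1a1 and 2531 of Col1a2. Those of WT naïve (3 cells) held 489, 489 and 3058 CPM. Col11a1 was the only cartilage collagen with a clear count on this side, with 42 UMIs or 180 CPM in tumour-bearing fibroblast-side cells.

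The collagens were spread unevenly over single tumour cells. Cells were thinned to 2000 UMIs each, which left out 470 of 3399 shallower cells. At this depth 82.5% of tumour cells held a UMI of Col9a1, 79.7% of Col11a1, 74.7% of Col3a1, 64.2% of Col9a2, 53.4% of Col9a3, 34.3% of Col11a2, 27.5% of Col2a1, 19.2% of Col1a1 and 0.307% of Col1a2. Unthinned, at a median of 4871 UMIs, these shares were 91.6%, 90.3%, 86.0%, 82.7%, 75.3%, 57.0%, 42.8%, 35.3% and 1.15%. In lymphocytes, which are not known to make these collagens and had a median of 3018 UMIs, the thinned shares were between 0 and 6.90%, and in macrophage-like cells, with a median of 3296.5 UMIs, between 0.260% and 6.23%. The share for Col1a2 in tumour cells was near the background in immune cells, whereas those of the 8 other genes were well above it.

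Col2a1 and Col11a2 had similar mean levels but a different distribution over cells. The variance of Col2a1 over thinned cells was 4.29 times its mean and that of Col11a2 was 1.80 times. The tenth of cells with the most Col2a1 held between 59.8% and 91.6% of all its UMIs by library. This share was 36.3% to 57.9% for Col11a2, 27.9% to 36.0% for Col9a1 and 28.8% to 39.8% for Col11a1. In the WT early library, where this share of Col2a1 and its variance over mean of 7.13 were highest, 13.7% of thinned cells held any Col2a1. For the sparser Col1a1 this share was 54.5% to 100%, and WT early, at 100%, held 13 UMIs of it in all. A lower mean by itself raises the share held by the top cells.

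Most tumour cells held several of the collagens at once. The median number of the 9 genes detected in a thinned cell was 3 to 5 by library, between 20.7% and 67.3% of cells held 5 or more, and between 0.324% and 3.65% held none. Within libraries the log levels of Col9a1 and Col9a2 correlated at a median r of 0.35 (range 0.23 to 0.52 over 6 libraries), those of Col9a1 and Col9a3 at 0.32 and those of Col3a1 and Col9a1 at 0.32, while those of Col11a1 and Col3a1 were near 0 at 0.063. These are descriptions across sparse cells of a library, all thinned to the same depth.

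Most of the collagens differed with the share of cell cycle messages in a tumour cell. Tumour cells of each library were ranked by the share of their UMIs from 48 cell cycle genes and cut into 3 equal groups, and the high and the low group were compared with the library as a block, so that each library served as its own control. Of 12381 genes tested, 29.7% were called at an adjusted p below 0.05 (quasi-likelihood test of edgeR, adjusted by Benjamini-Hochberg), 13.9% higher and 15.8% lower in the high group. Of the 8 collagens tested, 7 were lower and 1, Col1a1, was higher, and Col1a2 was too low to be tested.

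Col2a1 changed the most. In cells of the low group it was at 515, 451 and 175 CPM in the WT early, intermediate and late libraries and at 247, 774 and 289 CPM in the KO ones. In the high group it was at 64.7, 259 and 111 CPM in WT and at 115, 270 and 85.6 CPM in KO. It was lower in the high group of 6 of 6 libraries, with a log2 change of -1.37 (SE 0.19, edgeR adjusted p = 3.16e-05), although the ranges of the groups overlapped between libraries.

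Col9a2 went from a mean of 977 to 547 CPM, a log2 change of -0.81 (SE 0.082, edgeR adjusted p = 9.84e-07), and was lower in the high group of 6 of 6 libraries. Col11a1 went from 1470 to 1002 CPM, a change of -0.54 (SE 0.054, edgeR adjusted p = 7.29e-07), and Col3a1 from 1320 to 955 CPM, a change of -0.49 (SE 0.092, edgeR adjusted p = 5.95e-04), each lower in 6 of 6 libraries. Col11a2 changed by -0.46 (SE 0.12, edgeR adjusted p = 0.0075), from 290 to 209 CPM and lower in 5 of 6, and Col9a1 by -0.30 (SE 0.061, edgeR adjusted p = 0.0012), from 1690 to 1360 CPM and lower in 6 of 6. Whether the type IX chains changed by different amounts was not tested.

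Col9a3 and Col1a1 were close to the threshold. Col9a3 changed by -0.22 (SE 0.078, edgeR adjusted p = 0.045), from 479 to 417 CPM and lower in 4 of 6 libraries, and lost the call in 8 of 16 alternatives. Col1a1 changed by 0.40 (SE 0.14, edgeR adjusted p = 0.036), from 93.6 to 126 CPM and higher in 4 of 6 libraries, lost the call in 7 of 16 alternatives and was at -0.02 when cells with at least 500 genes were taken. The 6 other genes were called in the same direction in 16 of 16. Cells of the high group were also deeper in 5 of 6 libraries. With only cells at or above their library's median depth, an alternative added after seeing the data, the change of Col2a1 was -1.30, that of Col9a3 -0.16 (edgeR adjusted p = 0.116) and that of Col1a1 0.46 (edgeR adjusted p = 0.0050).

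**Figure D4:**
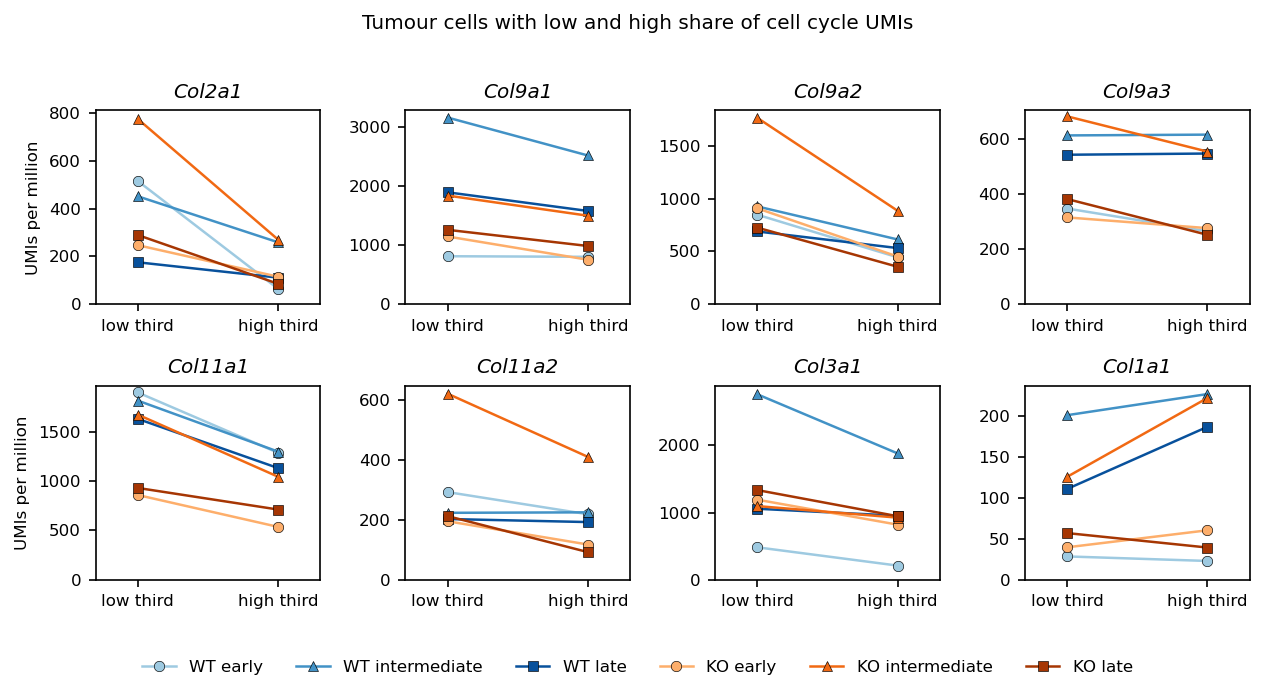
CPM of 8 collagen genes in the tumour cells with the lowest and the highest share of cell cycle UMIs (the outer 2 of 3 equal groups of each library), 1 line per tumour-bearing library, each axis starting at 0. All 6 lines fall for Col2a1, Col9a1, Col9a2, Col11a1 and Col3a1, whereas for Col1a1 4 of 6 rise.

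Counts for the other cartilage and collagen genes are read against the 15.8% of all tested genes that were lower and the 13.9% that were higher in this comparison, and with so few genes per list nothing is called particular to a list. Of 7 tested cartilage matrix genes 5 were lower in the high group, among them Comp, which links cartilage fibrils (log2 change -2.75), the matrilin Matn2 (-1.01) and Cnmd (-0.69), the gene of chondromodulin that the tables call Lect1. Of 3 other fibrillar collagens Col27a1 (-2.07) and Col5a1 (-0.88) were lower, and of 5 basement membrane collagens Col15a1 (-1.10), Col18a1 (-0.65) and Col4a5 (-0.59). Of 7 remaining collagens 4 were lower, led by Col20a1 (-0.71), Col6a2 (-0.66) and Col6a1 (-0.58), and Col22a1 was higher (1.14). Several of these genes were sparse over all tumour cells. Mean levels were 2.17 CPM for Comp, 7.30 for Col5a1, 8.12 for Col6a2, 9.52 for Col15a1 and 10.8 for Col22a1.

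Among 16 enzymes that fold and modify collagen chains 6 were lower, beside 15.8% of all genes tested, led by the hydroxylases Plod2 (-1.02), P4ha2 (-0.68) and P3h2 (-0.67), and Colgalt1 was higher (0.32). Of 6 genes for procollagen processing and crosslinking Loxl2 was lower (-1.94, at a mean of 5.41 CPM over all tumour cells) and Pcolce2 higher (0.83). Runx1 (-0.68) and Sox6 (-0.28) were lower among 3 cartilage transcription factors, and Itga2 (-0.90) and Itgb1 (-0.15), subunits of a collagen-binding integrin, among 6 collagen receptors. The median log2 change was -0.47 over the 8 collagens of interest and -0.04 over all genes tested.

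No difference of a collagen between KO and WT hosts, or between late and early tumours, was called in tumour cells. For host genotype with stage as a covariate, edgeR called 0 of 14346 genes (percent called 0), with 940 at an unadjusted p under 0.05 and 69 called by DESeq2. Col11a1 had the lowest p of the 9 genes, with a log2 difference KO minus WT of -0.66 (SE 0.22, edgeR adjusted p = 0.61), and it was lower in the KO library at each of the 3 stages. The other differences were -0.22 (SE 0.48) for Col1a1, -1.57 (SE 1.11) for Col1a2, 0.27 (SE 0.44) for Col3a1, 0.17 (SE 0.17) for Col2a1, -0.02 (SE 0.37) for Col11a2, -0.36 (SE 0.24) for Col9a1, 0.23 (SE 0.24) for Col9a2 and -0.19 (SE 0.23) for Col9a3. None was called in any of 15 alternatives.

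For stage, edgeR called 0 of 14346 genes late against early (percent called 0), with 1069 at an unadjusted p under 0.05 and 25 called by DESeq2. The largest change among the collagens was that of Col1a1, 1.17 (SE 0.59, edgeR adjusted p = 0.72), which was higher in the late library of WT and lower in that of KO hosts. Without the KO late library it was 2.23 (edgeR adjusted p = 0.014) and without the WT late library -0.16, so its value rests on single libraries. Col9a1 changed by 0.57 (SE 0.29) and was higher late in both genotypes, Col3a1 by 0.61 (SE 0.52), Col9a3 by 0.42 (SE 0.29), Col2a1 by -0.23 (SE 0.21), Col11a2 by -0.30 (SE 0.43), Col9a2 by -0.21 (SE 0.29), Col11a1 by -0.03 (SE 0.26) and Col1a2 by -0.58 (SE 1.33). With 2 libraries per stage, the simulated sums gave calls for 68% of genes changed 4-fold and 14% of genes changed 2-fold.

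Some host cells carried members of this family in proportions unlike those of tumour cells. OPCs, the precursors of oligodendrocytes, were found only in tumour-bearing libraries (62 cells). They held 353 CPM of Col11a1 (67 UMIs), 174 CPM of Col9a3 (33 UMIs) and 111 CPM of Col11a2 (21 UMIs) but 58.0 CPM of Col9a1 (11 UMIs). By library Col11a1 in OPCs was at 325, 358 and 303 CPM in WT and at 0, 827 and 311 CPM in KO, above the lymphocytes of the same library in 5 of 6. Immune cells of these libraries also held collagen UMIs, so the proportions among the genes were compared.

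Col11a1 made up 85.9% of the UMIs of Col11a1 and Col9a1 together in OPCs (exact 95% binomial interval 76.2% to 92.7%), against 42.6% in tumour cells, 53.3% in lymphocytes (37.9% to 68.3%) and 48.3% in macrophage-like cells (41.3% to 55.3%). Set against Col9a1 in the same way, Col9a3 made up 75.0% in OPCs (59.7% to 86.8%), 22.3% in tumour cells and 25.7% in macrophage-like cells (18.8% to 33.6%). Col11a2 made up 65.6% in OPCs (46.8% to 81.4%), 12.4% in tumour cells and 17.7% in macrophage-like cells (11.6% to 25.4%). For all 3 genes the interval of the OPCs lay above those of lymphocytes, macrophage-like cells and microglia-like cells. These shares pool libraries that the classes drew on unequally, and the intervals leave out the spread between libraries. WT early gave 32 and KO intermediate 17 of the Col11a1 UMIs in OPCs. In tumour cells Col11a1 was above Col9a1 in WT early (1418 against 762 CPM) and below it in WT intermediate (1476 against 2581 CPM). Class and library are thus mixed here, and no test within libraries was made. The intervals of lymphocytes and macrophage-like cells held the value of tumour cells, while in microglia-like cells Col11a1 at 57.9% (46.0% to 69.1%) and Col11a2 at 28.9% (16.4% to 44.3%) lay above it.

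Choroid plexus epithelial-like cells, which make cerebrospinal fluid, carried Col9a3 in naïve brain. There it was at 439 CPM in the WT and 269 CPM in the KO library (152 UMIs together), with 0 UMIs of Col9a1 and 12 of Col1a2. In tumour-bearing libraries it was at 912, 701 and 0 CPM in the 3, 2 and 1 such cells of the WT early, intermediate and late libraries and at 145 and 248 CPM in the 8 and 3 cells of the KO intermediate and late ones. The 1 WT late cell held 1663 UMIs in all, too few to show such a level. Of the 2 cells of the WT intermediate library, 1 held 51 UMIs of Col3a1 and 32 of Col9a1, which were all the Col9a1 UMIs of this class. In naïve brain, astrocytes held 43.0 CPM of Col9a3 and 38.0 CPM of Col11a2, and oligodendrocytes 33.1 CPM of each.

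**Figure D5:**
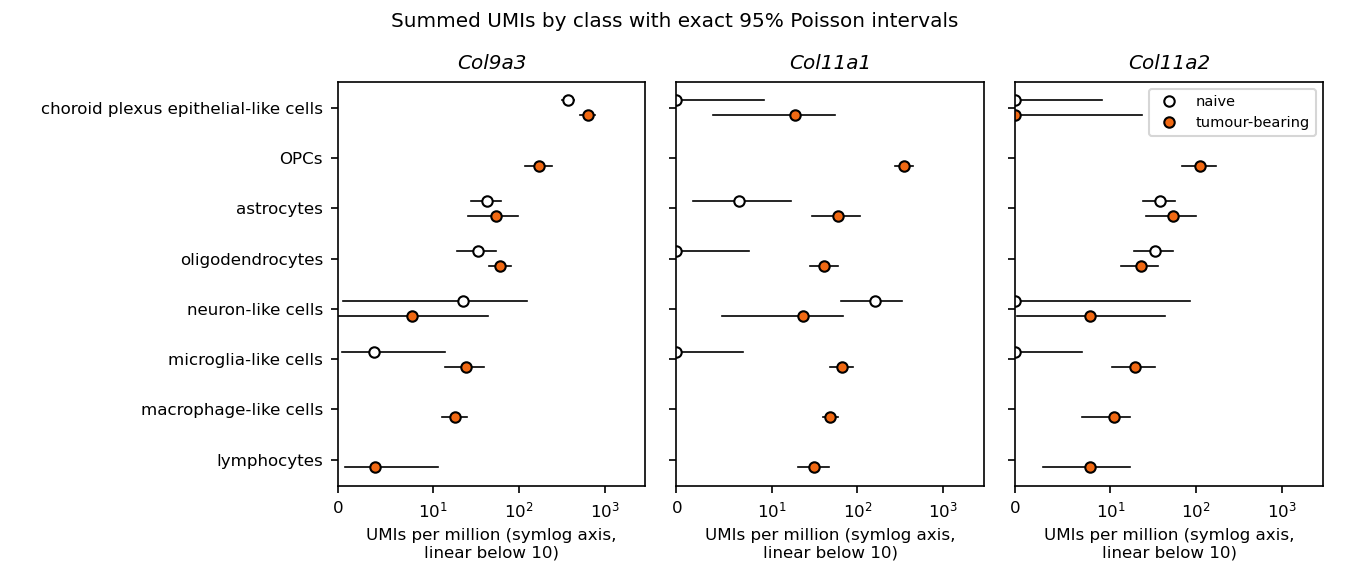
CPM of Col9a3, Col11a1 and Col11a2 in 8 host cell classes, pooled over naïve (open) or tumour-bearing (filled) libraries, on an axis that is linear below 10 and logarithmic above, with exact 95% Poisson intervals that cover counting error only. Choroid plexus epithelial-like cells stand out for Col9a3 in both kinds of library, and OPCs for Col11a1.

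Neuron-like cells of naïve brain held 159 CPM of Col11a1, but this rests on 7 UMIs, of which 2 were in 1 of 8 WT cells and 5 in 2 of 5 KO cells. Low levels of Col9a1, Col11a1 and Col3a1 were present in most host classes of tumour-bearing libraries. In microglia-like cells Col9a1 was at 0 in both naïve libraries and at a mean of 80.2 CPM in tumour-bearing ones. It alone of the 9 collagens passed the filter on low counts there, through the libraries in which it was high. It thus had to differ, so no fold or p-value is given. The test called 16.3% of 3124 genes, 9.15% higher and 7.17% lower. Of the microglia-like cells, 205 of 208 naïve ones were in cluster 12 and 165 of 175 tumour-bearing ones in cluster 11.

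In oligodendrocytes Col3a1 alone passed the filter, with 0 UMIs in both naïve libraries, so it passed only through tumour-bearing libraries and no fold is given. It was not called by edgeR (adjusted p = 0.17), in a test that called 2.2% of 2678 genes, 1.61% higher and 0.597% lower. In astrocytes no collagen of the 9 passed it, and 2.3% of 609 genes were called, 1.64% higher and 0.657% lower. Pooled over tumour-bearing libraries, Col9a1 was at 48.2 CPM in microglia-like cells, 51.9 CPM in macrophage-like cells, 27.6 CPM in lymphocytes and 54.6 CPM in oligodendrocytes, all below the tumour cells. In macrophage-like cells the libraries ranged from 5.03 CPM (WT early) to 336 CPM (WT late), and WT late held 41 of the 107 UMIs. Whether these UMIs came from RNA free in the cell suspension was not tested.

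Tumour cells held part, not all, of the other machinery of cartilage. Of 17 cartilage matrix genes listed, 10 were found in enough cells, and 5 of these were over 10 CPM in tumour cells. Of all 18473 genes, 9619 were over 10 CPM there, so nothing is read from this count. Acan was at a mean of 4.29 CPM and Comp at 2.17 CPM. Prg4 (0.365 against 82.3 CPM) and Mia (0.412 against 12.4 CPM) had lower means in tumour than in other cells. As means over libraries, chondromodulin (Cnmd) was at 1962 CPM in tumour and 101 CPM in other cells, the matrilin Matn2 at 201 and 29.9 CPM and the link protein Hapln1 at 82.1 and 9.15 CPM, and the first 2 of these were the only ones of 10 cartilage matrix genes that were more than 2-fold higher in 6 of 6 libraries. By this rule 2.96% of all 18473 genes were higher and 4.82% were lower. Of 8 cartilage transcription factors, Sox6 was more than 2-fold higher in every library, at 240 against 35.0 CPM. Sox9, the factor best known for driving Col2a1 in chondrocytes, was that much lower, at 1.07 against 42.8 CPM, as were Runx1 (8.79 against 52.7 CPM) and Runx3 (1.55 against 70.8 CPM), and Foxc1 was at 15.5 CPM.

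Enzymes that fold collagen were abundant, with Ppib at 547 against 352 CPM, P4hb at 522 against 304 CPM and the collagen chaperone Serpinh1 at 351 against 129 CPM, and 2 of 18, Plod2 (150 against 31.8 CPM) and P3h2, were more than 2-fold higher in every library. Of 8 processing genes only Pcolce, which speeds the trimming of procollagen, was so (402 against 53.3 CPM), with Pcolce2 at 81.4 CPM and Bmp1, a procollagen protease, at 25.8 CPM. Of 7 basement membrane collagens Col4a5 (251 against 32.5 CPM) and Col18a1 (138 against 27.4 CPM) were higher, and Col4a1 (9.74 against 109 CPM) and Col4a2 (6.24 against 96.2 CPM), the usual chains of vessel basement membrane, were lower. Of 14 remaining collagens Col16a1 was higher (184 against 29.9 CPM), with Col6a1 at 70.3 CPM and Col20a1 at 22.3 CPM, and of 4 other fibrillar ones none passed, with Col27a1 at 22.8 CPM, Col5a3 at 21.5 CPM and Col5a1 at 7.30 CPM. Of 9 collagen receptors none was higher by this rule and 2 were lower, Lair1 and Adgrg1, beside 2.96% and 4.82% of all genes. The most abundant receptors were Itgb1 (981 against 650 CPM), Ddr1 (69.9 CPM) and Ddr2 (55.9 CPM). The median log2 difference was 2.87 over the 9 collagens, between -1.11 and 0.76 over the other lists and 0.06 over all genes. Nothing is called particular to a list from these medians or from the counts above.

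The 3 genes most like each collagen in pattern were sought across all 75 sums of a cell class in a library with at least 5 cells. By Pearson correlation of log2(CPM + 10), given as a description over sums that share libraries, Col9a1 was most like Lect1 (0.81), Rhox2h (0.75) and Fam89a (0.75), and Col9a2 most like Lect1 (0.79), Car6 (0.78) and Fam89a (0.76). Col11a1 was most like Lect1 (0.72), Col9a2 (0.70) and Col16a1 (0.68), and Col2a1 most like 4930550L24Rik (0.83), Rhox2g (0.77) and Fndc3c1 (0.77). Lect1, the first of the leading genes of the tumour cell cluster, was thus the closest gene for 3 of the cartilage collagens. The collagens were listed since several of them lead the tumour cells too, so nothing more is read from this likeness.

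Col9a3 and Col11a2 were closest to each other (0.72), followed by Col2a1 (0.68) and Ctnnal1 (0.66) for Col9a3 and by Rlbp1 (0.72) and Gjc3 (0.72) for Col11a2. Col3a1 was most like Col1a1 (0.80), Emilin1 (0.77) and C1s1 (0.77), and Col1a1 most like Sphk1 (0.82), Tbx15 (0.81) and Foxd1 (0.81). Col1a2 was most like Tagln (0.91), Dcn (0.90) and Lox (0.89), the first a mural and the second a fibroblast marker. The chains of type I collagen had no gene in common among their 3 closest, though they correlated with each other at 0.72.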

How the data were processed

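Cells of 8 libraries were profiled by Drop-seq. The deposited UMI counts per gene and barcode were made by the authors with bcl2fastq 2.0, STAR and the Drop-seq pipeline, per the labels on GRCm38 (mm10), and are raw counts of 3000 barcodes per library, from 2885345 to 9950713 UMIs.

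In each library the top 1000 barcodes by UMIs were used. Genes had to be found in 30 or more cells and cells to hold 1000 or more genes, which left slightly more cells than the study's own matrix holds. Clusters were made without 34 collagen genes, on 50 principal components of log2(CPM + 1), by tSNE (Rtsne 0.17) and HDBSCAN (scikit-learn 1.9.0), and named from marker lists; cell names can therefore differ from those of the study. Doublets were kept in the main analysis and removed by Scrublet (scanpy 1.11.5) in an alternative.

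UMIs were summed per library and class with at least 5 cells and tested with edgeR 4.0.16 in R 4.3.3 (TMM scaling, filterByExpr, quasi-likelihood test, Benjamini-Hochberg adjustment over all genes tested, threshold 0.05). Fits over tumour cells had stage or genotype as a covariate, fits over host cells genotype, and the cell cycle fit the library as a block. With 1 library per genotype and stage, p-values measure the spread between these libraries. The tests were also run on counts simulated from the levels and spread of the real sums. Alternatives were clustering with all genes, Leiden clusters (leidenalg 0.10.2), at least 500 genes per cell, DESeq2 1.42.0, RLE scaling, no low-count filter, thinned sums, sums of 10 or more cells, other designs and leaving out each library in turn.

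The collagens, the other gene lists and the tests were chosen with earlier results of these data known, and the test of mural and fibroblast cells, the fit on cells at or above the median depth, marker naming without Mgp and the comparison without mural and fibroblast cells were added after seeing the data. All 9 collagens are named throughout. From each other list, the genes past the threshold are named, at most the 3 largest changes each way. Where no test was made, the 3 most abundant in tumour cells are named. The other genes that passed the fold limit in every library, Sox9 among them, were added after their values were seen. Acan, Comp, Prg4 and Mia were added in the same way.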

Additional observations from a re-analysis of the deposited data

Results flagged for a closer look

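In tumour cells of the KO intermediate library, Col11a2 (464 CPM) and Col9a2 (1123 CPM) lay farther from the 5 other libraries than Dixon's 95% critical value allows. These were 2 of 27 sets of 6 libraries examined, and chance alone flags about 1 in 20.

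Barcodes ranked after the first 2000 by UMIs in each library, up to 3000, were not used as cells. In those of the tumour-bearing libraries, Col9a1 was at 1025 CPM, Col11a1 at 880 CPM, Col3a1 at 835 CPM, Col9a2 at 466.3 CPM, Col9a3 at 348 CPM, Col11a2 at 186 CPM, Col2a1 at 173 CPM and Col1a1 at 88.2 CPM, all above the naïve barcodes of the same ranks. The order of these 8 genes was the same as that of their means in tumour cells.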

How the results depend on the processing

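The 6 collagens Col2a1, Col9a2, Col11a1, Col3a1, Col11a2 and Col9a1 were lower with a high cell cycle share in all 16 alternatives. The number of genes called in that comparison was 2066 with DESeq2, 2443 with thinned sums and 2708 to 3418 leaving out 1 library.

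For KO against WT, 69 genes were called with DESeq2, 2 each with at least 500 genes per cell, RLE scaling or no filter, and 1 with thinned sums. Leaving out 1 library gave 1 to 72 genes, the latter without WT early (42 without WT intermediate, 29 without KO early, 26 without KO intermediate). Late against early gave 25 genes with DESeq2 and 0 to 53 leaving out 1 library, the latter without KO late. Astrocytes gave 9 genes with Leiden clusters or doublets removed, 30 with at least 500 genes per cell or at least 10 cells per sum, 44 without the filter and 5 to 30 leaving out 1 library. Oligodendrocytes gave 212 genes without the filter and 3 to 75 leaving out 1 library, microglia-like cells 70 to 598, the lowest of both without KO naïve. Mural and fibroblast cells gave 33 genes with DESeq2 and 0 to 21 leaving out 1 library, the latter without WT late, and at least 10 cells per sum could not be fitted there.

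Uncalled differences turned sign. KO minus WT was -0.061 for Col3a1 and 0.25 for Col11a2 without a stage term, and leaving out 1 library ranged from -0.76 to 0.56 for Col1a1, -0.39 to 0.88 for Col3a1, -0.63 to 0.31 for Col11a2, -0.059 to 0.51 for Col9a2 and -0.37 to 0.12 for Col9a3. Late minus early was 0.59 for Col1a2 and 0.0017 for Col11a1 with at least 500 genes per cell, and leaving out 1 library ranged from -0.16 to 2.23 for Col1a1, -3.63 to 2.41 for Col1a2, -0.21 to 1.79 for Col3a1, -0.28 to 0.27 for Col11a1, -0.86 to 0.23 for Col11a2, -0.68 to 0.18 for Col9a2 and -0.10 to 0.87 for Col9a3. With at least 500 genes per cell, Col1a1 was at -0.024 in the cell cycle comparison, Col1a2 at -0.59 in mural and fibroblast cells, and Col1a2 at 0.10 in tumour over other cells, where 14 of the 60 mural and fibroblast cells had joined the tumour class. Against mural and fibroblast cells only, tumour cells were at -3.54 for Col1a1 and -2.35 for Col3a1. Where no construction is named, the cause was not tested.

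On simulated sums, KO against WT called 82% of genes changed 4-fold and 30% of genes changed 2-fold, and apart from Col1a2 the collagen differences fitted here were below 2-fold. Each tumour-bearing library was 1 mouse, hosts of the early and intermediate stages differed in sex, and several host classes had under 10 cells in a library.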
